A study of Homo sapiens with 6 samples.

Results

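HPRT1 and 9 further enzymes of purine synthesis and salvage (APRT, PNP, PPAT, PFAS, PAICS, ADSL, IMPDH1, IMPDH2 and GMPS) were described in RNA-seq libraries of PC9-BrM3 cells, 10 genes of 58735 in the deposited expression table. HPRT1 was included because its transcript level was strongly decreased in the knockdown of this same comparison, so its own values are given as a description with no test, whereas the other 9 were included for their enzymatic function. PC9-BrM3 is a highly brain-metastatic derivative of the lung adenocarcinoma line PC9, obtained by repeated selection in mice. The 6 libraries comprised 3 in which AKR1B10 was silenced with a short hairpin RNA from 1 lentiviral vector (BrM3-shAKR1B10, genotype labelled AKR1B10 knockdown) and 3 that carried a negative control hairpin (BrM3-shNC, genotype labelled WT), all from routine culture with no drug, so an effect of AKR1B10 loss and an effect of that 1 hairpin cannot be told apart. The labels do not say whether the libraries of a group came from separate cultures, and the p-values below therefore measure the spread between these libraries, which may be technical.

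Purine nucleotides are made along a de novo route and a salvage route that meet at inosine monophosphate (IMP). The de novo route builds the purine ring on phosphoribosyl pyrophosphate (PRPP) with the enzymes PPAT, GART, PFAS, PAICS, ADSL and ATIC, and GART is among the folate-dependent enzymes that pemetrexed inhibits. In salvage, HPRT1 joins hypoxanthine or guanine to PRPP to give IMP or GMP, APRT does the same with adenine to give AMP, and PNP frees hypoxanthine and guanine from their nucleosides. IMP is then converted to GMP by IMPDH1 or IMPDH2 and GMPS, and to AMP by adenylosuccinate synthetase and ADSL. The libraries were compared to ask how silencing of AKR1B10, an aldo-keto reductase, changed the transcriptome of these cells, and here that question is followed through the purine genes.

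Upstream sequences are shown because they precede the starts of the genes that the results turn on, HPRT1 and the divergent pair PPAT and PAICS. They were taken from RefSeq promoter windows (GRCh38.p14) and end at the gene starts of the deposited table. Capitals mark GGGCGG, the GC box bound by Sp1 family factors, and both are written on the plus strand, the strand of HPRT1 and PAICS.
HPRT1 upstream, chrX:134459915-134460152: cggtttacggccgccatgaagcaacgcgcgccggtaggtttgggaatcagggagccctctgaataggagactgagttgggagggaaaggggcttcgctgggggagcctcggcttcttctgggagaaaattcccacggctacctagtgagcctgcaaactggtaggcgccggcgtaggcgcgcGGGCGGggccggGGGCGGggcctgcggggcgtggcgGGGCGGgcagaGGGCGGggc
Between PPAT and PAICS, chr4:56435616-56435740: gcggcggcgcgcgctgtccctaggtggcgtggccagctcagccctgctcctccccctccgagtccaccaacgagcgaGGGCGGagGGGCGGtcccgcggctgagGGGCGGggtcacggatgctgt

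The 238 bases before HPRT1 held 4 GC boxes close to the gene start and were 69.3% G or C. The whole interval between PPAT and PAICS, which are transcribed away from each other, was 125 bases long, 76% G or C, and held 3 GC boxes. Of the 10 genes, 8 matched the RefSeq promoter table with 10 windows of 300 bases (250 before and 50 after a start), and ADSL and IMPDH2 did not. GGGCGG, searched on both strands, was in 9 of the 10 windows and in at least 1 window of each of the 8 genes, and in 45.0% of all 35116 windows. CACGTG, the E-box bound by MYC and other factors, was in windows of PAICS and PPAT and in 7.26% of all windows, and it lay 51 bases after the start of PAICS, outside the interval printed above. TGACNNNGC was also in windows of PAICS and PPAT, where it overlapped the last GC box printed, and in 13.3% of all windows. CCAAT was in a window of PNP and in 34.6% of all windows. TATAAA (11.5% of all windows), the NRF1 palindrome (1.24%), TTTCGCGC (0.515%) and TTTGGCGC (0.652%) were in none of these 10 windows. These matches describe letters in the windows, and none shows that a factor was bound.

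The files hold FPKM, fragments per kilobase of gene length, scaled to the size of each library. Whole reads could be recovered for 100% of the values within a tolerance of 0.01 reads, and 16964504 to 18709028 reads per library fell on genes. A count of 3 reads, the limit that a count of 0 allows, corresponded to 0.163 to 0.177 FPKM for a gene of 1000 bases. AKR1B10 (ENSG00000198074) stood at 108, 107 and 110.2 FPKM in the 3 BrM3-shAKR1B10 libraries and at 799, 775 and 772 FPKM in the 3 BrM3-shNC libraries. The target was thus at 13.9% of its control level (log2 fold change -2.85, SE 0.0300, limma adjusted p = 1.59e-07). All 6 epithelial markers fixed for the cell line (EPCAM, CDH1, KRT7, KRT8, KRT18 and KRT19) were expressed, with summed levels of 3167 to 3253 FPKM in the knockdown and 2986 to 3348 FPKM in the control. Markers of other cell types were low, with summed levels of at most 2.05 FPKM for 5 fibroblast genes (COL1A2, DCN and LUM at 0), 0.566 FPKM for 5 leukocyte genes (LYZ at 0), 2.37 FPKM for 4 endothelial genes (KDR at 0) and 3.59 FPKM for 5 neural and glial genes. The control library BrM3-shNC replicate 1 stood apart from the other controls, with a chi-square per gene of 4.88 and 5.42 against them, compared with 2.45 to 2.70 for every other pair of libraries within a group.

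HPRT1 (ENSG00000165704, chrX:134460153-134520513 on the plus strand, GRCh38, 9 coding exons) was measured at 7.11, 7.26 and 8.37 FPKM in the BrM3-shAKR1B10 libraries and at 46.3, 43.7 and 47.6 FPKM in the BrM3-shNC libraries. The knockdown libraries were all low and the control libraries all high, with no overlap. Behind these values were 204, 213 and 241 reads against 1380, 1201 and 1411 reads, far above the 3-read limit of 0.101 to 0.109 FPKM for this gene. The mean level was 7.58 ± 0.686 FPKM (SD, n = 3) in the knockdown and 45.9 ± 1.97 FPKM (SD, n = 3) in the control, so 16.5% of the control level remained. In bulk libraries such as these, fewer cells with the transcript and less transcript per cell cannot be told apart. The coefficient of variation was 9.05% among the knockdown libraries and 4.30% among the controls. On the log2(FPKM + 0.1) scale, which understates changes of low genes, the fold change was -2.58, the 10th lowest of 13150 genes tested and the 2nd lowest of 10777 protein-coding genes tested.

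All annotated exonic sequence of HPRT1 was unshared with any other gene on the same strand. Its 3 annotated pseudogenes, HPRT1P1, HPRT1P2 and HPRT1P3, had 0 reads counted in every library, which for each allows at most the 3-read limit. That limit covers counted reads only, since the handling of reads that match several places is not given. The expressed paralog PRTFDC1, a close relative of HPRT1 with little enzymatic activity, shared no identical run longer than 14 bases with the HPRT1 coding sequence. PRTFDC1 itself was at 9.38, 9.25 and 7.77 FPKM in the knockdown and 12.6, 12.3 and 13.3 FPKM in the control. HPRT1 was above PRTFDC1 in every control library, at 3.60 ± 0.0729 times its level (SD, n = 3), and at 0.873 ± 0.177 times its level (SD, n = 3) in the knockdown libraries, where the ratios were 0.758, 0.785 and 1.077.

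**Figure D1:**
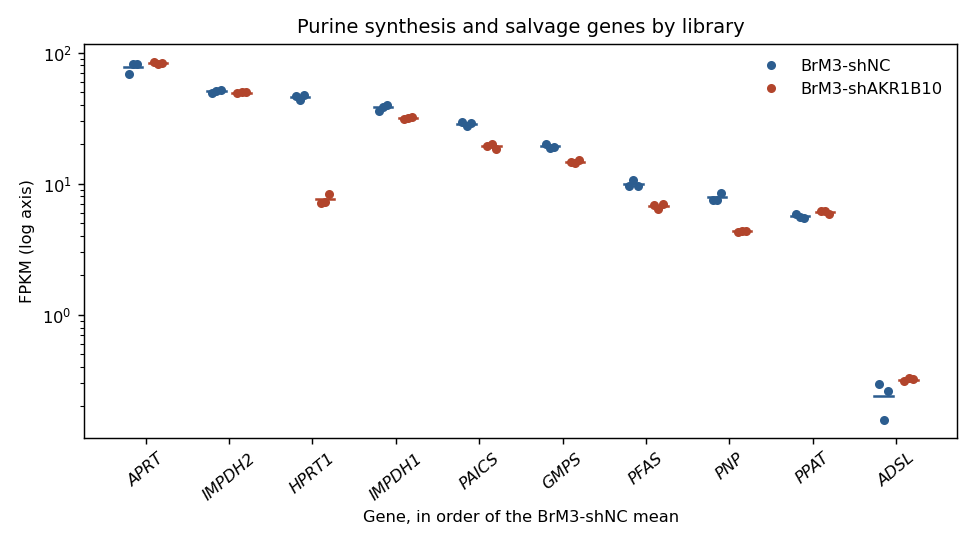
FPKM per library (log axis) of the 10 purine genes, in order of their mean in BrM3-shNC; points are the 3 libraries of each group and bars their means. HPRT1 lies between 43.7 and 47.6 FPKM in the controls and between 7.11 and 8.37 FPKM in the knockdown, while APRT and IMPDH2 overlap between the groups.

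The plot of FPKM by library shows the order of the levels, which are per kilobase of all annotated exons of a gene. In the controls the order was APRT, IMPDH2, HPRT1, IMPDH1, PAICS, GMPS, PFAS, PNP, PPAT and ADSL. HPRT1 was 3rd in that order and 6th in the knockdown, where it stood between GMPS and PFAS. PPAT and PNP also changed places, PNP being 8th in the controls and 9th in the knockdown. Among the 9 pairs of neighbours in either order, 0 had library values that overlapped.

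Of the 9 members other than HPRT1, 8 passed the filter of a mean of at least 1 FPKM and were tested by limma on log2(FPKM + 0.1), with genes called at an adjusted p under 0.05 and a log2 fold change beyond 0.5. PNP, PAICS and PFAS were called lower, 3 of 8, whereas 7.45% of all genes tested were called lower. None was called higher (0 of 8 by limma and 0 by limma voom on the recovered reads, 0 at an unadjusted p under 0.05 by limma, against 5.83% of all genes). Below the fold threshold, APRT (log2 fold change 0.16, adjusted p = 0.0321) and PPAT (0.16, adjusted p = 0.0459) had an adjusted p under 0.05 by limma voom, as had PPAT with TPM scaling (adjusted p = 0.0398). At the adjusted p alone 5 of 8 were lower, with GMPS and IMPDH1 added, against 23.1% of all genes. The median log2 fold change of the 8 was -0.32, beside -0.01 over all genes tested. In 5 of the 8 the knockdown libraries were all below the controls (29.2% of all genes), in PPAT they were all above (25.5% of all genes), and in APRT and IMPDH2 the groups overlapped.

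In salvage, PNP (ENSG00000198805, chr14:20468954-20477094), the phosphorylase that splits inosine and guanosine, fell. It was at 4.28, 4.32 and 4.37 FPKM in the knockdown and 7.57, 7.51 and 8.47 FPKM in the control. The 3 knockdown libraries differed little among themselves, and all lay below the lowest control, with 55.1% of the control mean (log2 fold change -0.84, SE 0.0577, limma adjusted p = 9.66e-05). APRT (ENSG00000198931, chr16:88809339-88811944), which salvages adenine, was the highest of the 10 genes in both groups. It was at 84.9, 81.7 and 83.8 FPKM in the knockdown and 68.7, 81.9 and 82.0 FPKM in the control, and 2 controls lay within the knockdown range. Its log2 fold change of 0.11 had a 95% interval of -0.06 to 0.28 (limma adjusted p = 0.253), and without BrM3-shNC replicate 1, its lowest library, it was 0.03 (limma adjusted p = 0.503). Within the libraries HPRT1 stood at 0.596 ± 0.0715 of the APRT level in the controls and 0.0908 ± 0.00821 in the knockdown (SD, n = 3 each), a description that follows from the choice of HPRT1.

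In de novo synthesis, PFAS and PAICS fell, whereas PPAT, which acts before them, did not pass the test. PPAT (ENSG00000128059, chr4:56393362-56435615, minus strand), the amidotransferase of the committed step, was at 6.15, 6.19 and 5.92 FPKM in the knockdown and 5.88, 5.54 and 5.52 FPKM in the control. The groups did not overlap, but by a narrow margin, and the log2 fold change of 0.11 (95% interval -0.01 to 0.22, limma adjusted p = 0.111) did not pass the test. PFAS (ENSG00000178921, chr17:8247618-8270491), which makes the amidine intermediate, was at 6.90, 6.43 and 6.95 FPKM against 9.58, 10.6 and 9.69 FPKM. All knockdown libraries were below all controls, and PFAS fell to 67.8% of its control mean (log2 fold change -0.55, SE 0.0569, limma adjusted p = 0.000507). With a pseudocount of 1 in place of 0.1 its log2 fold change was -0.50, just inside the fold threshold.

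PAICS (ENSG00000128050, chr4:56435741-56464579, plus strand), a bifunctional carboxylase and ligase, was at 19.4, 20.02 and 18.5 FPKM in the knockdown and 29.3, 27.6 and 29.03 FPKM in the control. It fell to 67.4% of its control mean, again with no overlap (log2 fold change -0.57, SE 0.0434, limma adjusted p = 0.000149). PAICS starts next to PPAT on the opposite strand, and within each library the PAICS level was 3.16, 3.23 and 3.12 times that of PPAT in the knockdown and 4.98, 4.98 and 5.26 times in the control. The ratio was lower in every knockdown library, 3.17 ± 0.0580 against 5.08 ± 0.159 (SD, n = 3 each). An exact two-sided permutation test gave p = 0.10, the smallest p that 3 against 3 allows, and an adjusted p of 0.10 over 4 ratios tested. These are the genes that flank the GC-rich interval printed above, and the ratio did not overlap between the groups.

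ADSL (ENSG00000239900, chr22:40346500-40390463), which acts in both the de novo route and the AMP branch, was listed at 0.310, 0.327 and 0.325 FPKM in the knockdown and 0.299, 0.158 and 0.262 FPKM in the control, on 39, 42 and 41 reads against 39, 19 and 34 reads. It did not pass the filter and was not tested. Only 10.1% of its coding bases, 146 of 1452, are free of exons of the readthrough gene AL022238.4 on the same strand, so its values are uncertain and are not a measure of how much ADSL transcript the cells held.

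On the way from IMP to GMP, the rate-limiting dehydrogenases IMPDH1 and IMPDH2 and the amidating enzyme GMPS did not pass the fold threshold. IMPDH1 (ENSG00000106348, chr7:128392277-128410252) was at 31.0, 31.6 and 32.4 FPKM in the knockdown and 35.8, 38.6 and 40.2 FPKM in the control. The groups did not overlap, and the log2 fold change was -0.27 (SE 0.0480, limma adjusted p = 0.00495). IMPDH2 (ENSG00000178035, chr3:49024325-49029408), the isozyme usually linked to proliferating cells, was at 49.1, 49.6 and 49.6 FPKM against 48.8, 51.1 and 51.8 FPKM, with overlap. Its log2 fold change of -0.03 had a 95% interval of -0.11 to 0.05 (limma adjusted p = 0.478), and its sign turned with TPM scaling and limma voom, where the median of all genes moved by about as much. GMPS (ENSG00000163655, chr3:155870536-155944026) was at 14.7, 14.4 and 15.2 FPKM in the knockdown and 19.99, 18.6 and 19.2 FPKM in the control, a log2 fold change of -0.38 (SE 0.0414, limma adjusted p = 0.000622) with no overlap. The ratio of IMPDH1 to IMPDH2 was 0.640 ± 0.0103 in the knockdown and 0.755 ± 0.0207 in the control (SD, n = 3 each, exact permutation p = 0.10). Annotated pseudogenes had few counted reads, at most 0.914% as many as IMPDH1 over 7 IMPDH1 pseudogenes in any library. The corresponding values were 0.358% for GMPS, 0.392% for PPAT and 0.194% for PAICS. How reads that match several places were counted is not given, so these counts do not show whether gene and pseudogene reads were confused. IMPDH1 and IMPDH2 shared no identical coding run longer than 17 bases.

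The members were then set within a wider list of 76 purine genes without HPRT1, of which 58 were tested. Of these, 11 were called lower and 5 higher, while 7.45% and 5.83% of all genes were, and the median log2 fold change was -0.06 beside -0.01 over all genes. The balance of calls over all genes, 980 lower and 766 higher, turned with TPM scaling (873 lower and 902 higher) and limma voom (851 and 984). The plot of fold changes by role shows that the calls were spread over several steps. Among the 6 genes of de novo synthesis to IMP, 5 were tested and PAICS and PFAS were lower, with a median of -0.35. GART, the trifunctional enzyme of this route, was at 11.3, 11.999 and 11.4 FPKM against 15.3, 13.8 and 15.2 FPKM (log2 fold change -0.35, limma adjusted p = 0.00225), and ATIC, which closes the ring, at 73.2, 73.1 and 72.1 FPKM against 75.8, 74.9 and 71.4 FPKM (-0.02, limma adjusted p = 0.607, with a sign that turned in 3 alternatives). In the branches from IMP to AMP and GMP, 4 of 6 genes were tested and limma called 0 (0 by limma voom). At the limma adjusted p alone 2 were lower, GMPS and IMPDH1, against 23.1% of all genes. At an unadjusted p under 0.05 there were 3. ADSS, the adenylosuccinate synthetase at the head of the AMP branch, had a log2 fold change of -0.10 (limma adjusted p = 0.0711).

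**Figure D2:**
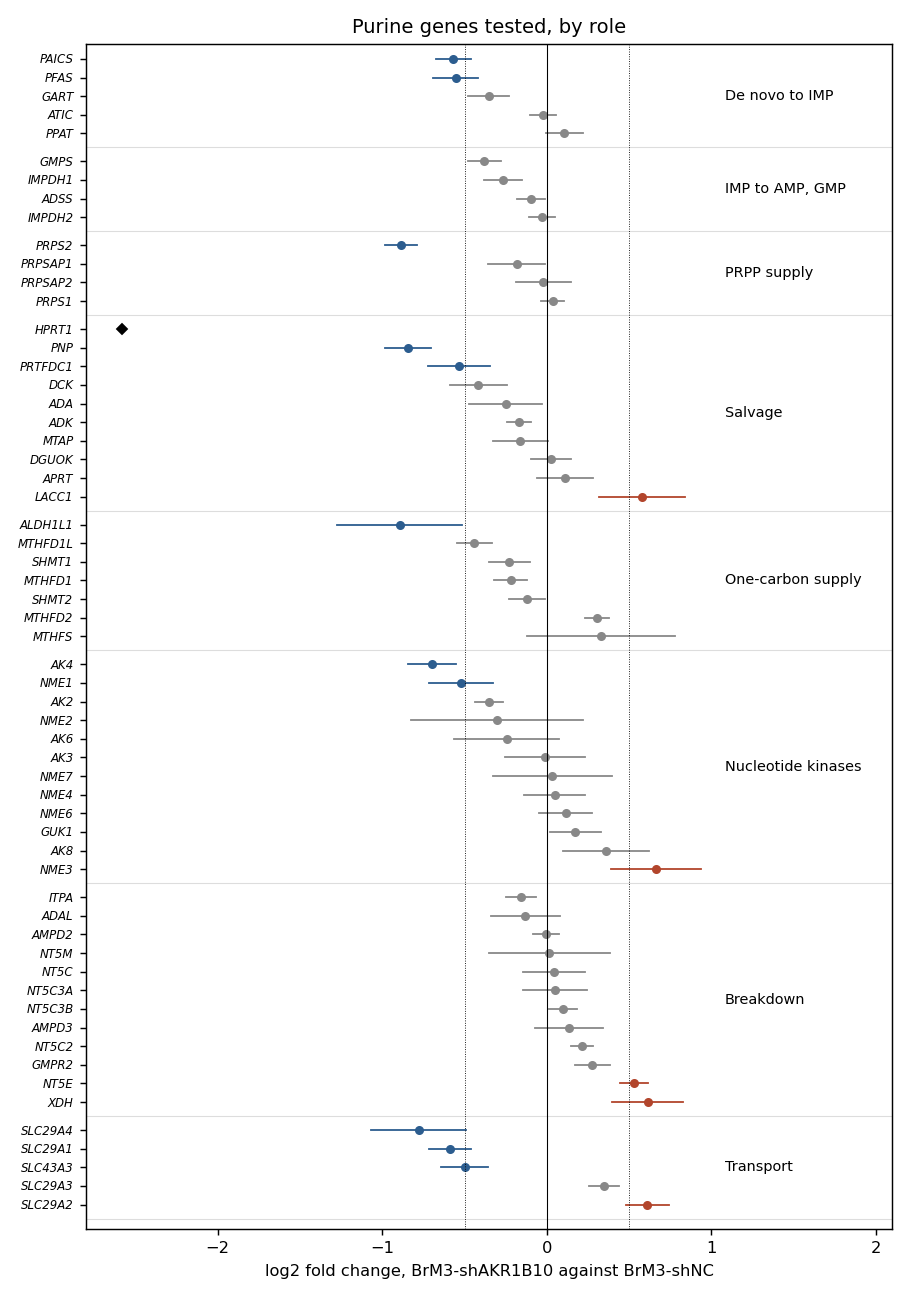
Log2 fold change (x axis, BrM3-shAKR1B10 against BrM3-shNC, on log2(FPKM + 0.1)) of the purine genes tested, grouped by role. Circles are estimates with 95% intervals, blue for genes called lower, red for higher and grey for neither, dotted lines mark the threshold of 0.5, and the black diamond is HPRT1, shown without an interval at -2.58.

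In PRPP supply, 4 of 5 genes were tested and 1 was called, against 13.3% of all genes. PRPS2, a PRPP synthetase, fell, being at 14.1, 13.9 and 14.3 FPKM in the knockdown and 26.9, 26.7 and 24.8 FPKM in the control (log2 fold change -0.89, SE 0.0415, limma adjusted p = 2.64e-05). PRPS1, the synthetase with the higher level per length, was at 33.8, 34.1 and 33.6 FPKM against 33.7, 33.2 and 32.3 FPKM (0.03, limma adjusted p = 0.397). The libraries did not overlap for PRPS2 and overlapped for PRPS1, and the ratio of PRPS2 to PRPS1 was 0.416 ± 0.00937 in the knockdown and 0.790 ± 0.0184 in the control (SD, n = 3 each, exact permutation p = 0.10). Their coding sequences shared no identical run longer than 23 bases. PRPSAP1 and PRPSAP2, which bind and restrain the synthetases, had log2 fold changes of -0.18 and -0.02, and neither was called. Leaving out single libraries moved these values to between -0.24 and -0.11 for PRPSAP1 and between -0.09 and 0.04 for PRPSAP2.

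Among 9 salvage genes other than HPRT1, all were tested, 2 were lower and 1 higher (7.45% and 5.83% of all genes). PNP is given above, and PRTFDC1 fell (log2 fold change -0.53, limma adjusted p = 0.00228), a call lost without BrM3-shAKR1B10 replicate 3 (-0.45) and without BrM3-shNC replicate 3 (-0.50). LACC1, an enzyme of purine nucleoside metabolism known from macrophages, rose from 2.86, 2.47 and 3.09 FPKM in the controls to 3.88, 4.75 and 4.08 FPKM (0.58, limma adjusted p = 0.00634). Its call was lost without BrM3-shAKR1B10 replicate 2 or BrM3-shNC replicate 2 (0.49 each) and with a pseudocount of 1 (0.46). Of the coding bases of LACC1, 59.7% are free of other annotated genes on the same strand. The kinases that phosphorylate salvaged nucleosides were not called, with log2 fold changes of -0.17 for ADK (adenosine), -0.42 for DCK (deoxycytidine and purine deoxynucleosides) and 0.03 for DGUOK (deoxyguanosine in mitochondria), whose sign turned when single libraries were left out (-0.01 to 0.07). The same held for ADA, the adenosine deaminase, at -0.25, and for MTAP, which recovers adenine from methylthioadenosine, at -0.16.

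One-carbon units for the ring come from folate, and of 9 genes of this supply 7 were tested, 1 of which was called, against 13.3% of all genes called in either direction. ALDH1L1, the cytosolic formyltetrahydrofolate dehydrogenase, fell from 1.33, 1.54 and 1.52 FPKM to 0.726, 0.792 and 0.699 FPKM (log2 fold change -0.89, limma adjusted p = 0.00489). Its knockdown mean of 0.739 FPKM is under the filter of 1 FPKM, which it passed through the controls, and it was called lower with no filter as well. The mitochondrial enzymes MTHFD1L and MTHFD2 stood on opposite sides, at -0.44 and 0.31 (limma adjusted p = 0.000453 for both), without passing the fold threshold.

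Of 16 nucleotide kinases, 12 were tested, 2 were lower and 1 higher (7.45% and 5.83% of all genes), with a median log2 fold change of 0.01. AK4, a mitochondrial adenylate kinase, fell from 10.7, 10.8 and 10.5 FPKM to 7.15, 6.21 and 6.32 FPKM (-0.70, limma adjusted p = 0.000240). NME1, a nucleoside diphosphate kinase, was called lower (-0.52, limma adjusted p = 0.00281), a call lost without BrM3-shAKR1B10 replicate 1 (-0.45) or BrM3-shNC replicate 1 (-0.48), and only 25.2% of its coding bases are free of other annotated genes on the same strand. NME3, another kinase of that family, rose from 21.5, 26.5 and 29.5 FPKM to 43.9, 39.0 and 39.2 FPKM (0.66, limma adjusted p = 0.00442).

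Of 18 breakdown and interconversion genes 12 were tested. Limma called 0 lower (0 by limma voom, 1 at an unadjusted p under 0.05) and 2 higher, where 7.45% and 5.83% of all genes were called. At the limma adjusted p alone 1 was lower and 4 were higher, against 23.1% and 19.4% of all genes. The median log2 fold change was 0.07. NT5E, the surface 5'-nucleotidase CD73 that makes adenosine from AMP, rose from 14.9, 14.9 and 14.1 FPKM to 21.2, 21.3 and 20.9 FPKM (0.53, SE 0.0354, limma adjusted p = 8.96e-05). XDH, which oxidises hypoxanthine and xanthine to uric acid and thus uses a substrate of HPRT1, rose from 3.34, 2.74 and 3.28 FPKM to 4.72, 4.60 and 5.11 FPKM (0.61, SE 0.0892, limma adjusted p = 0.00213), a call lost with a pseudocount of 1 (0.50). The libraries of the groups did not overlap for either gene.

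Of 8 nucleoside and nucleobase carriers 5 were tested, of which 3 were lower and 1 higher (7.45% and 5.83% of all genes). SLC29A1, the main equilibrative nucleoside transporter ENT1, fell from 18.8, 18.2 and 19.1 FPKM to 13.3, 12.3 and 11.7 FPKM (log2 fold change -0.59, limma adjusted p = 0.000321). SLC29A2, the transporter ENT2 that also carries hypoxanthine, rose from 20.9, 19.5 and 21.1 FPKM to 31.5, 29.5 and 33.1 FPKM (0.61, limma adjusted p = 0.000276). The ratio of SLC29A1 to SLC29A2 was 0.397 ± 0.0395 in the knockdown and 0.913 ± 0.0180 in the control (SD, n = 3 each, exact permutation p = 0.10), with no overlap. SLC29A4, a monoamine and adenosine carrier, was lower at a low level (1.04, 0.963 and 1.05 against 1.84, 1.69 and 1.93 FPKM, log2 fold change -0.78, limma adjusted p = 0.00276), a call lost with a pseudocount of 1 (-0.48). SLC43A3, a purine nucleobase carrier, was at the fold threshold (-0.50, limma adjusted p = 0.000910), and its call was lost without BrM3-shAKR1B10 replicate 1 (-0.47) or 2 (-0.49) and without BrM3-shNC replicate 2 (-0.46). Only 23.0% of the coding bases of SLC43A3 are free of other annotated genes on the same strand.

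**Figure D3:**
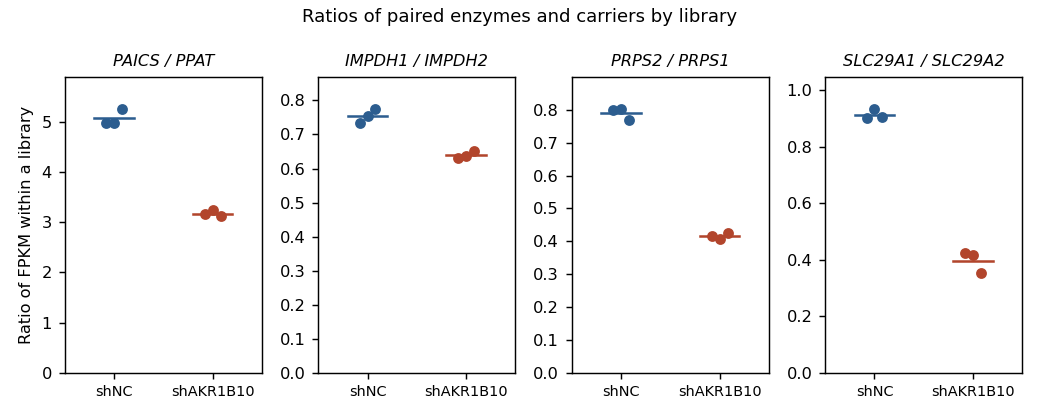
Ratio of FPKM within each library for 4 pairs of purine genes, from 0, with points for the 3 libraries of each group and bars for their means. All 4 ratios are lower in each BrM3-shAKR1B10 library than in each BrM3-shNC library, from 0.790 to 0.416 on average for PRPS2 over PRPS1.

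Genes of DNA replication and mitosis moved in the same comparison, and purine synthesis is known to be higher in dividing cells. Of 16 such genes 12 were called lower and 0 higher by limma (7.45% and 5.83% of all genes), with a median log2 fold change of -0.81. Limma voom called 10 lower, MCM3 and MCM7 losing their calls there and under quantile normalization, and 0 higher, and 0 were higher at an unadjusted p under 0.05. MKI67, the Ki-67 antigen, was at 15.1, 16.4 and 15.8 FPKM in the knockdown and 40.3, 39.6 and 39.9 FPKM in the control (-1.34, limma adjusted p = 8.72e-06). TYMS, the thymidylate synthase that pemetrexed also inhibits, fell with a log2 fold change of -0.91 (limma adjusted p = 0.000569). The part of these genes' change in the values of PAICS, PFAS, PNP, PRPS2 and HPRT1 was not tested.

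Genes near HPRT1 on the X chromosome were examined for a regional difference. Of 66 annotated genes within 1 Mb of it, 14 were tested, 2 were called lower and the other 12 were not called, where 7.45% of all genes tested were lower and 5.83% higher. Their log2 fold changes ranged from -0.79 to 0.91, the upper end being AL590282.2, a gene on 3 to 14 reads per library that passed the filter through the knockdown alone (95% interval -0.07 to 1.89). The neighbour PHF6, a chromatin protein whose start lies at -86.9 kb relative to that of HPRT1, was at 14.0, 14.2 and 13.7 FPKM against 19.0, 18.4 and 17.5 FPKM (-0.39, limma adjusted p = 0.000637). On the other side the noncoding gene MIR503HG, 86.5 kb after the HPRT1 start, had -0.22 (limma adjusted p = 0.377) with overlapping libraries. The called genes were CCDC160, at -223 kb, with -0.56 (limma adjusted p = 0.0255) and FAM122B, at 337 kb, with -0.79 (limma adjusted p = 6.01e-05). The call of CCDC160, on at most 62 reads per library, was lost without BrM3-shAKR1B10 replicate 1 (-0.45) or 3 (-0.54) and without BrM3-shNC replicate 2 (-0.51) or 3 (-0.54), and also with a pseudocount of 1 (-0.36) and with no filter (limma adjusted p = 0.0553). MOSPD1, at 455 kb, had 0.34 (limma adjusted p = 0.00543). RTL8B (0.30), RTL8C (0.38), ZNF75D (0.25) and ZNF449 (0.38) also had a limma adjusted p under 0.05, as had RTL8A (-0.18). At the adjusted p alone 23.1% of all genes were lower and 19.4% higher. The plot of neighbouring genes by distance shows values on both sides of 0 around HPRT1.

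**Figure D4:**
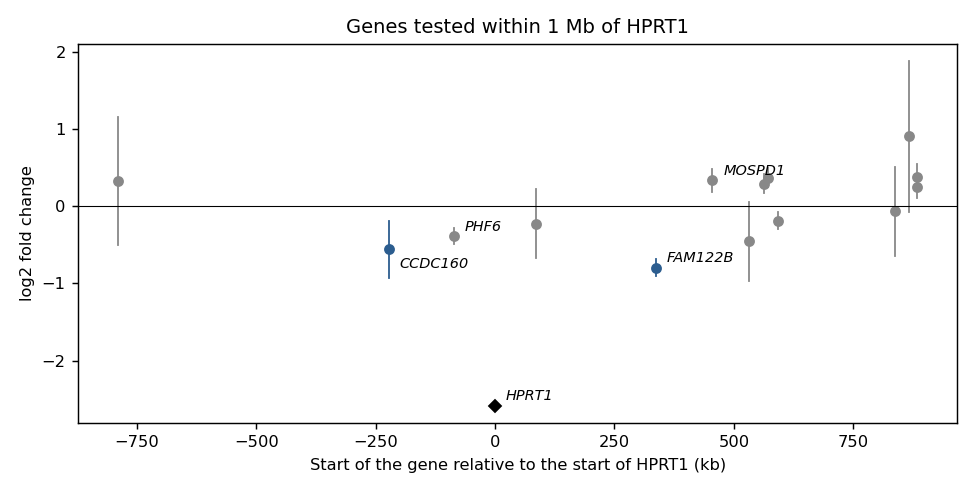
Log2 fold change (BrM3-shAKR1B10 against BrM3-shNC) of genes tested within 1 Mb of HPRT1, by the distance between gene starts in kb. Bars are 95% intervals, blue marks the 2 genes called lower, grey those not called, and the black diamond is HPRT1 at -2.58, below the -0.79 of FAM122B.

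HPRT1 is widely used as a reference gene in quantitative PCR, so it was set beside 12 other genes used in that way, all of which were tested. Their BrM3-shAKR1B10 means were between 82.2% (GUSB) and 123% (TFRC) of the BrM3-shNC means, where HPRT1 had 16.5%. Limma called 0 of the 12 in either direction (0 by limma voom). At the limma adjusted p alone 6 were lower and 2 higher, against 23.1% and 19.4% of all genes. At an unadjusted p under 0.05 these counts were 7 and 3. The knockdown libraries were all below the controls in 8 (29.2% of all genes) and all above in 3 (25.5%). Log2 fold changes ranged from -0.28 to 0.30. All 12 thus lay within 0.5 of 0, as did 83.3% of all genes tested. GAPDH and ACTB, the usual choices, had -0.10 (limma adjusted p = 0.146) and -0.15 (limma adjusted p = 0.0122).

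Over the 6 libraries, 5 genes had the profile most like that of HPRT1, by Euclidean distance between log2(FPKM + 0.1) values centred on each gene's mean. AKR1B10 itself was nearest, at a distance of 0.369. MZT1, a small subunit of the gamma-tubulin complex, followed at 0.604, with 5.93, 5.37 and 4.93 FPKM in the knockdown and 25.6, 25.8 and 24.3 FPKM in the control. TNC, the matrix protein tenascin C, was at 0.689, with 4.97, 4.87 and 5.10 FPKM against 20.5, 21.2 and 20.8 FPKM. The noncoding genes LINC00431 and AL592114.2 followed at 0.730 and 0.836, the latter on at most 35 reads per library. Their knockdown means of 0.945 and 0.528 FPKM are under the filter of 1 FPKM, which they passed through the controls. Likeness here rests on the difference between the groups and on 6 libraries, and it is given as a description.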

How the data were processed

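RNA from 6 PC9-BrM3 libraries was sequenced by the authors as paired ends after poly(A) selection. Per the labels and the study's methods, reads were aligned with HISAT2 2.0.5 and counted per gene with featureCounts 1.5.0-p3, and the authors deposited FPKM computed from counts and gene length. The genome build, the strand setting and the handling of reads in overlapping genes or matching several places are not given in the sources used here. All 58735 gene positions matched GENCODE annotation of GRCh38. Reads recovered from FPKM and gene length summed to 16964504 to 18709028 per library, and limits on low values cover counting error only.

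Some other genes used as qPCR references are not analysed here. Values were analysed as log2(FPKM + 0.1) with limma 3.58.1 (R 4.3.3, empirical Bayes with trend, group only) over 13150 genes with a mean of at least 1 FPKM, since the deposited values are FPKM. The recovered reads were tested by limma voom as an alternative. P-values were adjusted by Benjamini-Hochberg over all genes tested, and calls required both an adjusted p below 0.05 and a log2 fold change beyond 0.5. Scripts (Python 3.11.15) were tested on simulated data. Ratios within libraries were compared by exact permutation tests. Named genes were the members, the called genes and main enzymes of the wider purine list, genes within 1 Mb of HPRT1, its pseudogenes, reference genes, AKR1B10 and the 5 genes with the nearest profile, beside markers of cell types and proliferation from fixed lists. The members, lists and tests were chosen with earlier results of these data known. Alternatives covered the pseudocount, filter, scaling, test, gene set, fold threshold, replicate block and each library left out.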

Additional observations from a re-analysis of the deposited data

How the results depend on the processing

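HPRT1 was lower in every alternative, with log2 fold changes from -2.66 to -2.54 when single libraries were left out and -2.45 with a pseudocount of 1. With that pseudocount the wider purine list had 6 genes lower and 3 higher (11 and 5 as reported) and 497 of all genes were higher (766 as reported). PFAS then had -0.50 and lost its call, as did SLC29A4 (-0.48), XDH (0.50), LACC1 (0.46), NME1 (-0.48), PRTFDC1 (-0.49), SLC43A3 (-0.44) and the HPRT1 neighbour CCDC160 (-0.36). With a mean of at least 5 FPKM, which leaves fewer genes to test, 3 of the wider list were higher and 532 and 290 of all genes were lower and higher, against 980 and 766. With a fold threshold of 1, limma called 0 of the 8 other members and 0 of the wider list lower or higher (25 lower and 12 higher at an unadjusted p under 0.05), and 205 and 168 of all genes. With no fold threshold the counts were 5 for the members, 21 lower and 10 higher for the wider list, and 3044 and 2548 for all genes. The sign of IMPDH2 turned with TPM scaling (0.0053) and limma voom (0.018), which moved the median of all genes from -0.01 to 0.03 and 0.04, about as far as IMPDH2 itself (-0.03 as reported). NME1, PRTFDC1 and SLC43A3 also lost their calls under TPM scaling, quantile normalization and limma voom, and MCM3 and MCM7 under the last 2 of these. Leaving out single libraries gave 3 members lower each time, 9 to 10 of the wider list lower and 4 to 5 higher. ADSL, with 19 to 42 reads per library, was under the filter and has no test.

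The replicate numbers did not pair the libraries (correlations of deviations -0.02, 0.0039 and 0.0038). With the replicate number as a block, 3 members were lower and 0 higher (0 also at an unadjusted p in the fit without the block), 11 and 5 of the wider list and 967 and 719 of all genes were called, HPRT1 stayed at -2.58, and no member changed its call.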
